A study of Mus musculus with 2 samples.

Results

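Cadherins, protocadherins, semaphorins, plexins, ephrins and related receptors are cell surface and secreted proteins through which cells adhere, sort and steer one another. They were taken from a list of m6A-enriched sites of mouse pancreatic islets by gene name alone: names that begin as Cdh and a number, Pcdh, Celsr, Fat1 to Fat4, Sema, Plxn, Epha, Ephb, Efna, Efnb, Robo, Slit, Nrp1, Nrp2, Unc5, Nrxn, Nlgn or Ncam, except Cdh5. The rule found 51 sites on 36 genes, of 8987 sites on 4953 genes in the list. It also takes in Unc50, a membrane protein of the Golgi and the endoplasmic reticulum that shares only the first letters of its name with the netrin receptors.

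The islets came from 2-week-old mice of the 129sv strain, with no genotype, allele or agent given. RNA fragments pulled down with a polyclonal antibody against N6-methyladenosine (m6A), the most abundant internal mark of messenger RNA, gave 1 immunoprecipitate library (IP), and RNA without the pulldown gave 1 Input library. The labels do not say how many animals were pooled. With 1 library a group there is no replicate error and no test across samples, so every difference below is a description of this pair of libraries. The deposited values are per site. The fold enrichment is a linear ratio of IP over the background that the caller (MACS) takes from Input, the score is 10 times the negative log10 of the p from that caller, and the FDR is the caller's false discovery rate, read as a percent. Read depth is unknown, so no interval can be given, and a gene without a site in the list was not thereby shown to be unmethylated, nor to be expressed.

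Cadherins bind like cadherins on a neighbouring cell in a calcium-dependent way and link to the actin cytoskeleton through catenins. Semaphorins signal through plexins and neuropilins, ephrins through Eph receptors, Slits through Robo receptors and netrins through Unc5 receptors. Many of these families guide axons in the growing nervous system, and many also act in blood vessels and in epithelia.

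The strongest enrichment lay on receptors and synaptic adhesion genes: Plxna2 (fold 15.48), Unc5a (15.26), Plxnb2 (13.28), Nlgn2 (12.19) and Unc5b (10.35) were the 5 genes with a fold of at least 10. Most sites of the families were weaker. Folds ran from 3.65 to 15.48 with a median of 5.81, and the middle 50% of sites lay between 5.11 and 7.68. Over all sites the median was 7.13, and the middle 50% lay between 5.47 and 9.87. A fold of at least 10 was reached by 5 of 51 sites (9.80%), against 24.6% of all sites, and a fold of at least 5 by 39 (76.5%), against 82.7%. By gene, the median of the strongest fold was 5.99 over 36 genes and 8.10 over all 4953.

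Scores were low in the same way. The median score was 93.86, against 132.3 over all sites, and 20 of 51 sites (39.2%) scored below 70, close to the lowest score in the list (50), as did 1793 of all 8987 sites. A caller p of at most 1e-10 was met by 25 sites (49.0%), against 62.1% of the list. The FDR was below 100% for 6 sites (11.8%), against 25.7%. Those 6 lay on Plxna2 (48.76%), Robo1 (63.71% and 78.84%), Unc5a (71.62%), Cdh2 (76.98%) and Nrxn2 (82.19%). Of the 5 sites with a fold of at least 10, those on Plxnb2, Nlgn2 and Unc5b had an FDR of 100%. None of the 51 reached a score of 3100. So few sites of the list did, 123 (1.37%), that this says little for 51 sites. The score grows with the number of reads as well as with the fold, and the read level of each gene is not known here, so its part in these low values was not tested.

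**Figure D1:**
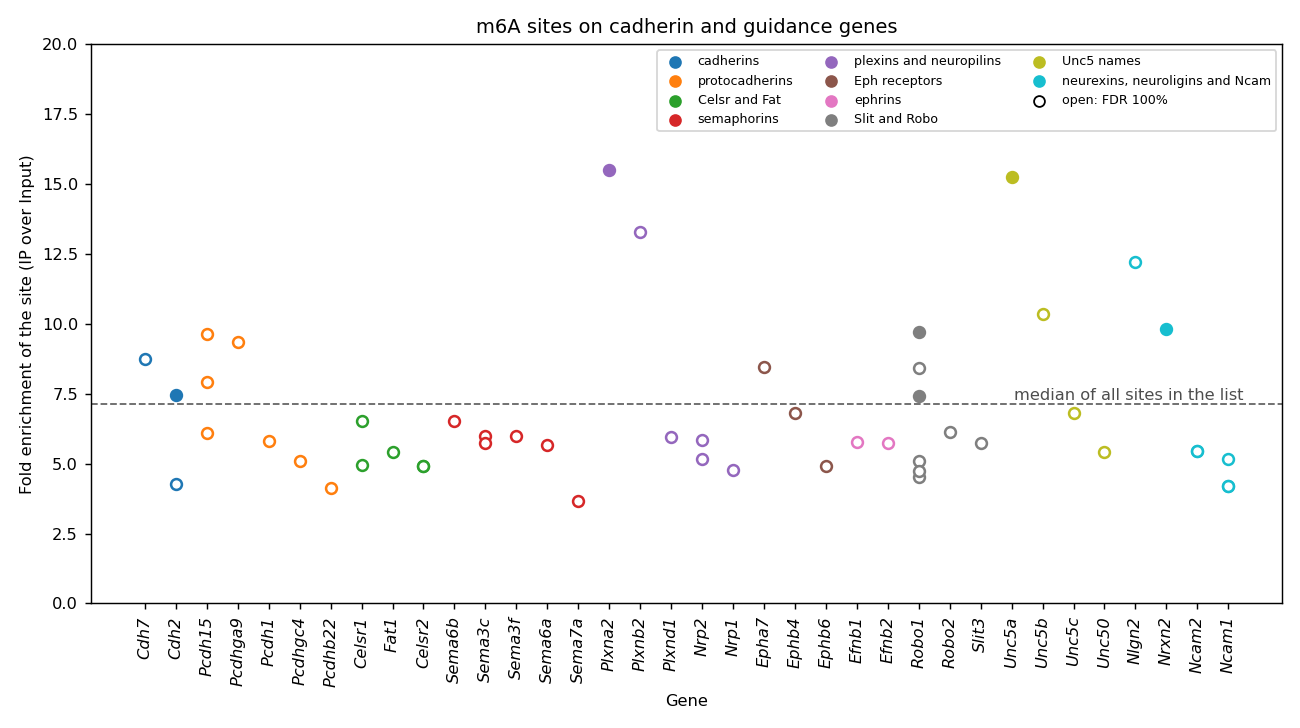
Fold enrichment (IP over Input, y axis) of each of the 51 sites by gene, ordered by subfamily. Each circle is 1 site, filled where the FDR is below 100%, and the dashed line is the median of all sites in the list (7.13). Plxna2, Unc5a and Plxnb2 stand highest, and every site on a semaphorin or an ephrin lies under the line.

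**Figure D2:**
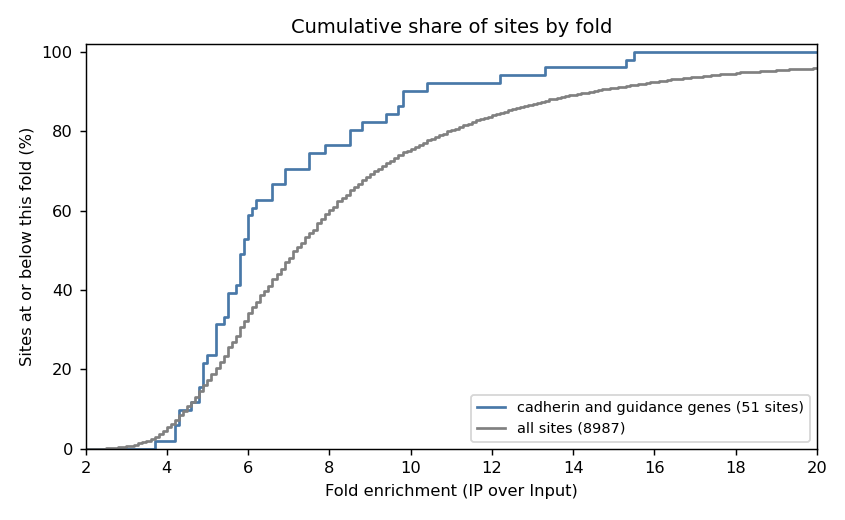
Share of sites (percent, y axis) at or below each fold (x axis) for the 51 sites and for all 8987 sites. The curve of the cadherin and guidance genes lies to the left over most of the range: 36 of its 51 sites lie at or below the list's median.

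Genes of these families carried a site about as often as any protein-coding gene. Of 172 protein-coding genes whose symbols meet the rule, 36 (20.9%) had a site in the list, against 22.2% of all 21900. They are longer than most, with a median genomic span of 94429 bases against 17146, and long genes have a site more often. Among all protein-coding genes of like span, taken in 10 groups by span, 31.8% had a site. With sites of a fold of at least 5 alone, 31 of the 172 family genes had one, against 19.7% of all protein-coding genes. With a p of at most 1e-10 the count was 18 (10.5%, against 15.4%), and with an FDR below 100% it was 5 (2.91%, against 7.29%). Cadherins proper and protocadherins lay furthest below the share of genes of like span. Eph receptors (21.4%, against 33.5%) and semaphorins (5 of 20, against 31.8%) lay below it too, and the other subfamilies above it.

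**Figure D3:**
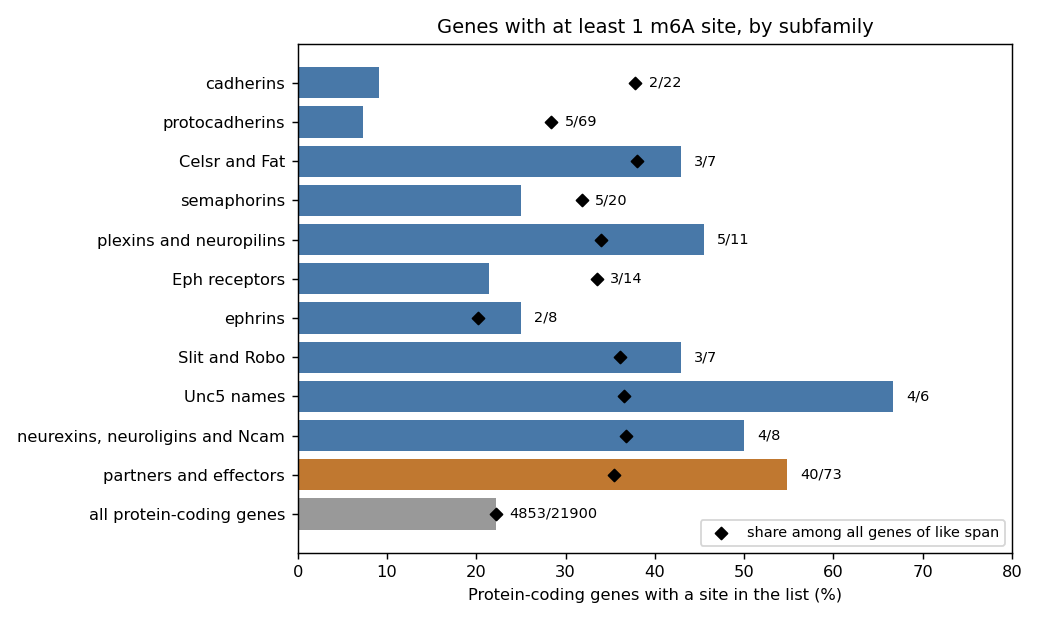
Percent of protein-coding genes with at least 1 site in the list, by subfamily (bars, with counts), and the percent among all protein-coding genes of like span (diamonds). Cadherins (2 of 22) and protocadherins (5 of 69) lie far below their diamonds, whereas partners and effectors of the pathway (40 of 73) lie above. Each site counts for 1 gene alone, also where the spans of clustered protocadherins overlap.

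Among the guidance genes, only receptors had sites with a fold of at least 10, and these were no more frequent than in the whole list. Receptors (plexins, neuropilins, Eph, Robo and the 4 Unc5 netrin receptors) had a site on 13 of 33 genes (39.4%), with a median fold of 6.81 over 19 sites and a range from 4.53 to 15.48. Of those 19 sites, 4 had a fold of at least 10, as did 24.6% of all sites. Above the list's median fold lay 8 of the 19, against 49.9% of all sites. Ligands (semaphorins, ephrins and Slits) had a site on 8 of 31 genes (25.8%), with a median fold of 5.75 over 9 sites, a range from 3.65 to 6.54, and 0 sites above the list's median, where 49.9% of all sites lie. Adhesion genes (cadherins, protocadherins, Celsr, Fat, neurexins, neuroligins and Ncam) had a site on 14 of 106 genes (13.2%), with a median fold of 5.45 over 22 sites. Shares expected from genomic span were 34.4%, 29.8% and 31.6%. The ranges of receptors and ligands overlap, since the lowest receptor sites lie below the highest ligand site.

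Cadherins proper had sites on 2 of 22 genes (9.09%, against 37.8% among genes of like span). Cdh2, N-cadherin, had 2 sites on chromosome 18, at 16622128 to 16622267 with a fold of 7.46 and a score of 460.61, and at 16640422 to 16640594 with a fold of 4.26 and a score of 65.34. Both are short, 140 and 173 bases, and 18154 bases lie between them. Cdh7, a type II cadherin, had a single longer site of 765 bases (chromosome 1, 110137862 to 110138626) with a fold of 8.75. Cdh1, E-cadherin, the main cadherin of epithelia, had no site in the list, and neither had Cdh10, Cdh11, Cdh12, Cdh13 or Cdh15. Cdh5, the endothelial cadherin that the rule leaves out, had 4 sites with folds from 3.77 to 9.52.

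Protocadherins had sites on 5 of 69 genes (7.25%, against 28.4% among genes of like span). Of these 69, 57 belong to the clustered alpha, beta and gamma groups of chromosome 18, in which neurons express different sets of members as a surface identity. A site was listed for 3 of the 57 (5.26%, against 27.9% among genes of like span). The list names 1 gene per site, so a site where clustered genes overlap counts for 1 of them alone. How far this lowers both shares was not tested. The gamma and alpha transcripts each join a variable first exon to constant exons that the whole group shares. Pcdhga9 had the strongest clustered site, with a fold of 9.34 but a score of 56.32, over 1971 bases (37839903 to 37841873). That site overlaps the annotated spans of 21 clustered protein-coding genes and ends at the last base of the cluster, the outermost base shared by 9 of them, so it cannot be assigned to Pcdhga9 alone. The Pcdhgc4 site (37815079 to 37817676, fold 5.11, score 132.23) begins at the first annotated base of Pcdhgc4 and overlaps the spans of 20 clustered genes. The Pcdhb22 site (37518048 to 37520020, fold 4.12) covers 1973 bases and overlaps the span of 1 clustered gene, its own. All 3 are among the 8 longest sites of these families.

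Outside the clusters, 2 of 12 protocadherins had a site. Pcdh15, which forms the tip links of hair cells together with Cdh23, had 3 sites on chromosome 10. Their folds were 6.10 (74185274 to 74185429), 9.62 (74210367 to 74210486) and 7.90 (74642282 to 74642390), each over at most 156 bases of a gene of 1553555 bases. The last was assigned to another RefSeq transcript than the first and second and lies 431795 bases further on. Pcdh1 had 1 site of 863 bases on chromosome 18 (38202744 to 38203606) with a fold of 5.81. Pcdh10, Pcdh11x, Pcdh12 and Pcdh17 were among the 10 without one.

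The large cadherins of planar cell polarity and growth control had sites on 3 of 7 genes, all of moderate fold. Celsr1 and Celsr2, seven-pass cadherins of planar cell polarity, had 2 sites each. Those of Celsr1 had folds of 6.54 (chromosome 15, 85932284 to 85932469) and 4.96 (86032264 to 86033318). Those of Celsr2 both had a fold of 4.90 (chromosome 3, 108397760 to 108397943 and 108415403 to 108415552). The Celsr2 sites lie 17459 bases apart, at 2.35% and 72.2% of the gene from its 5′ end. Fat1, a giant cadherin that restrains growth, had 1 site with a fold of 5.42 (chromosome 8, 45040534 to 45040996). Celsr3, Fat2, Fat3 and Fat4 had none.

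Plexins and neuropilins, which receive semaphorins, had sites on 5 of 11 genes. Plxna2, a receptor for class 6 and class 3 semaphorins, held the strongest site of all 51 by fold and by score (chromosome 1, 194619829 to 194620397, fold 15.48, score 1340.05). Its fold exceeded that of 91.7% of all sites in the list, and its score that of 95.6%. Plxnb2, a receptor of class 4 semaphorins, had a site of 124 bases with a fold of 13.28 (chromosome 15, 89180665 to 89180788). Plxnd1, the endothelial receptor of Sema3e, was far lower, with a fold of 5.96 (chromosome 6, 115958527 to 115958690). The co-receptors Nrp1 and Nrp2 both had sites, Nrp1 with a fold of 4.78 (chromosome 8, 128493027 to 128493164) and Nrp2 with folds of 5.17 and 5.86. The second Nrp2 site covers 2306 bases (chromosome 1, 62815333 to 62817638). Plxna1, Plxna3, Plxna4, Plxnb1, Plxnb3 and Plxnc1 had no site in the list.

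Semaphorins had sites on 5 of 20 genes, of classes 3, 6 and 7. Among the secreted class 3 semaphorins, Sema3c had folds of 5.99 (chromosome 5, 17574617 to 17574965) and 5.72 (17724081 to 17724211), and Sema3f a fold of 5.99 (chromosome 9, 107709418 to 107710015). Among the membrane-bound class 6, Sema6b had a fold of 6.54 (chromosome 17, 56123085 to 56124917) and Sema6a a fold of 5.66 (chromosome 18, 47247500 to 47249584), over 1833 and 2085 bases. Sema7a, held in the membrane by a lipid anchor, had the lowest fold of the 51 sites, 3.65 (chromosome 9, 57955703 to 57955831). None of the 6 class 4 genes and neither class 5 gene had a site in the list.

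Eph receptors had sites on 3 of 14 genes (21.4%, against 33.5% among genes of like span) and their ephrin ligands on 2 of 8 (against 20.2%), each gene a single one. Of 9 EphA receptors only Epha7 had a site (chromosome 4, 28963889 to 28964388, fold 8.44). Of 5 EphB receptors, Ephb4, the venous endothelial partner of Efnb2, had a fold of 6.81 (chromosome 5, 137372024 to 137372217), and Ephb6, which lacks kinase activity, a fold of 4.90 over 68 bases (chromosome 6, 41612644 to 41612711). The transmembrane ephrins Efnb1 and Efnb2 had nearly equal folds, 5.76 (chromosome X, 99136130 to 99137013) and 5.75 (chromosome 8, 8660484 to 8660773). None of the 5 lipid-anchored A ephrins had a site, nor had Efnb3. Epha1, Epha10, Epha2 and Epha3 were among the receptors without one.

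Robo1, a receptor for Slit proteins with no enzyme activity of its own, had the most sites, 6 on chromosome 16. From 5′ to 3′ their folds were 8.43, 7.43, 5.11, 4.53, 9.72 and 4.72, and their scores 102.07, 782.59, 93.86, 86.02, 440.44 and 116.94. Folds fell over the first 4 sites, were highest at the fifth and low again at the last, and the second and the fifth have by far the highest scores. All 6 lie between 72904630 and 73043187, a stretch of 138558 bases that makes up 13.6% of a gene of 1019974 bases. Robo2 had 1 site with a fold of 6.12 (74046780 to 74046937), and Slit3, a secreted ligand, 1 with a fold of 5.72 whose last base is the last annotated base of the gene (chromosome 11, 35707907 to 35708507). Slit1, Slit2, Robo3 and Robo4 had no site.

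Of the 4 Unc5 netrin receptors, which turn netrin into a repellent and can signal cell death without it, 3 had a site, all near or above the list's median. Unc5a had a fold of 15.26 and a score of 528.38 (chromosome 13, 54999622 to 54999924). Unc5b, expressed in blood vessels, had a fold of 10.35 (chromosome 10, 60831087 to 60831581), and Unc5c one of 6.81 (chromosome 3, 141677987 to 141678616), where the predicted gene Gm15689 overlaps. Unc5d had none. The unrelated Unc50 had a fold of 5.40 (chromosome 1, 37430170 to 37430493).

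Synaptic adhesion genes, which beta cells also express for secretion and cell contact, had sites on 4 of 8 genes. Nlgn2, the neuroligin of inhibitory synapses, had a fold of 12.19 over 868 bases (chromosome 11, 69833982 to 69834849). Nrxn2, a presynaptic partner of the neuroligins, had a fold of 9.80 over 1178 bases (chromosome 19, 6531268 to 6532445). Ncam1, the neural cell adhesion molecule, which islet endocrine cells carry, had 3 sites on chromosome 9 with folds of 4.21, 5.18 and 4.20, and the highest of them exceeded only 20.1% of all sites, although the first scored 222.79. Ncam2 had 2 sites of equal fold, 5.45, separated by 5394 bases. Nlgn1 and Nlgn3 were among the genes without a site in the list.

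Many sites lay toward the 3′ end of these genes. The strand was known from the RefSeq promoter table for 26 of the 36 genes, with 37 sites, and position was measured from the middle of a site along the annotated span. Of the 37, 16 (43.2%) lay in the last 10% of the gene, against 12.7% of the 7197 sites of the list with a known strand. Among all sites on genes of like span the share was 15.2%. The 16 sites lay on 13 genes: Cdh7, Epha7, Ephb4, Fat1, Nrp1, Nrp2, Pcdh15, Plxnd1, Robo1, Robo2, Sema3c, Sema6b and Slit3. They are 13 of 26 genes, whereas 20.6% of 3901 genes of the list with a known strand had a site there.

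The share does not rest on Robo1, which holds 4 of the 16 sites: without it, 12 of 31 sites (38.7%) lay in the last 10%. Counting the gene from the outermost start of the promoter table in place of the outer base of the span gave 14 of 37 (37.8%), against 12.1% of all sites. Only Slit3 and Sema6b had a site whose middle lay within 1000 bases of the annotated 3′ end. They make up 5.41% of sites, against 6.11% of all sites and 3.29% of those on genes of like span. Within 10000 bases of that end lay 15 of 37 sites (40.5%), against 29.4% of all sites and 19.5% on genes of like span. The median position was 86% of the span from the 5′ end, against 49.7% for all sites, but 70.1% without Robo1. Exon boundaries were not used here, and long genes often have long first introns, so how much of the 3′ share follows from where the exons lie was not tested.

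**Figure D4:**
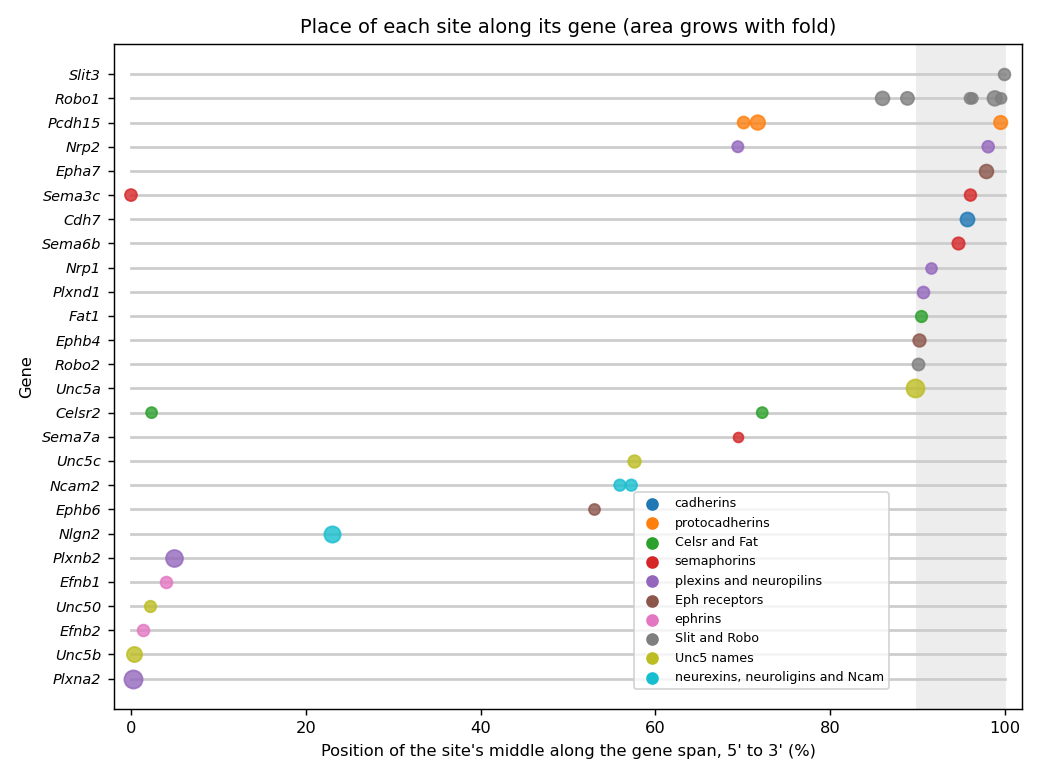
Each of the 26 genes with a known strand is drawn as a line from its 5′ end (0%) to its 3′ end (100%), with a dot at the middle of each site whose area grows with the fold, and with the last 10% shaded. Dots gather in the shaded band and close to 0%, and few lie between 5% and 50%.

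**Figure D5:**
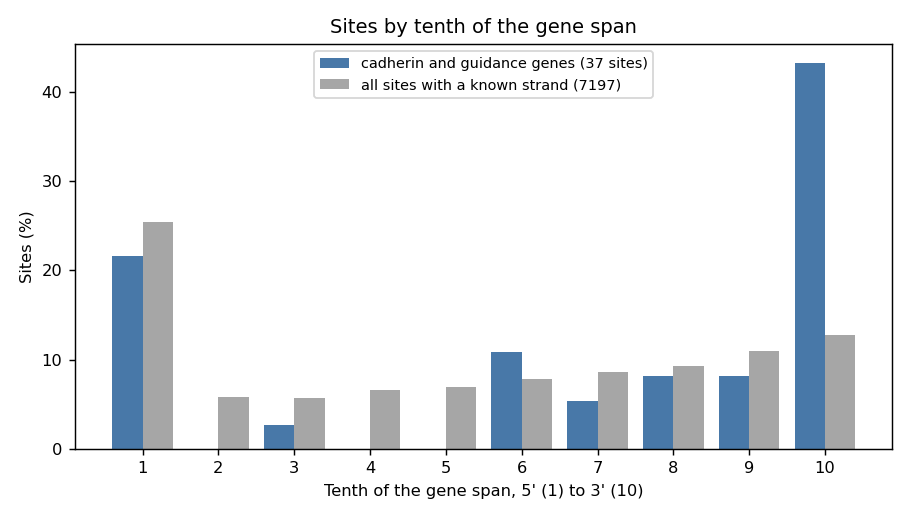
Percent of sites (y axis) in each of 10 equal parts of the gene span, 5′ to 3′ (x axis), for the 37 sites of the cadherin and guidance genes and for the 7197 sites of the list with a known strand. The last 10% holds 43.2% of the former and 12.7% of the latter, and the first 10% 21.6% and 25.4%. Among all sites on genes of like span (not drawn) the last 10% holds 15.2% and the first 10% 22.2%.

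A second, smaller group lay at the 5′ end. Within 1000 bases of an annotated start were 8 of 37 sites (21.6%), against 27.5% of all sites. Among all sites on genes of like span the share was 21.6% as well. The 8 sites lay 1 each on Plxna2, Plxnb2, Unc5b, Sema3c, Efnb1, Efnb2, Celsr2 and Unc50. Their folds ran from 4.90 to 15.48, with a median of 5.88, and those of the other 29 from 3.65 to 15.26, with a median of 5.96. The groups overlap almost entirely, although 3 of the 5 highest folds (Plxna2, Plxnb2 and Unc5b) sit at a start. The sites on Plxna2, Plxnb2, Sema3c and Unc5b cover an annotated start. Those on Plxna2, Plxnb2 and Unc5b begin at it to the base.

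For 6 of these 8 sites, the RefSeq table (GRCm38.p6) holds transcribed bases inside the site. A stretch of at most 30 of them is shown for each, from the only part of the enriched RNA whose letters were read here. For Plxna2, Plxnb2 and Unc5b it runs from transcribed base 1 to 30. For Sema3c it runs from base 21 to 50, where its GGAC lies. Sequences run 5′ to 3′ on the strand of the gene, with the motif GGAC in capitals.
Plxna2, plus strand, chr1:194619829-194619858: gctgagctgagccgcgctgcgcgcagcact
Plxnb2, minus strand, chr15:89180759-89180788: ggctcccgcgcgctccggcccctcctcggc
Unc5b, minus strand, chr10:60831552-60831581: attgtggccggcggcagggcgggcgagggc
Sema3c, plus strand, chr5:17574836-17574865: accggccggcaggaatcccaccctccGGAC
Celsr2, minus strand, chr3:108415530-108415552: aggagccggaggaagagccgccg
Unc50, plus strand, chr1:37430170-37430188: caagtgcgggctacgtagc

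Methyltransferase targets share a short motif whose centre reads GAC or AAC and whose frequent form holds GGAC. GGAC was found on the transcript strand in the Sema3c stretch alone, 1 of 6, and in 18.9% of all 32851 windows of 50 transcribed bases (17.4% on the opposite strand). GAC, which GGAC contains, and AAC were likewise found only in Sema3c among the 6, counted over all table bases inside each site, against 48.1% and 38.5% of all windows (47.8% and 42.3% on the opposite strand). The table covers at most 50 bases of sites that run up to 569 bases, so these letters say nothing of the rest of each site. For Celsr2 and Unc50 only 23 and 19 bases were searched, fewer than in the windows of 50 bases set beside them.

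Site length varied more than fold. The median was 219 bases, against 211 over all sites, with a range from 68 to 2598. Sites over 1000 bases numbered 8 (15.7%), against 9.97% of the list, on Pcdhgc4, Nrp2, Sema6a, Pcdhb22, Pcdhga9, Sema6b, Nrxn2 and Celsr1. Their median fold was 5.76 and their median score 65.9, against 6.30 and 153.6 for long sites of the whole list. A single site, on Ephb6, was of 100 bases or fewer, against 10.7% of the list. In each length class the median fold of these families lay below that of the list: 5.45 against 7.08 for sites over 100 and up to 250 bases, and 5.99 against 7.66 for those over 250 and up to 1000.

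Most of the 36 genes, 27, had a single site. Another 6 had 2, Ncam1 and Pcdh15 had 3 and Robo1 had 6, so 9 of 36 had several, against 40.3% of all genes with a site. The mean was 1.42 sites per gene against 1.81. Within genes the sites stood apart, with the smallest gap, 2680 bases, in Robo1 and the widest in Pcdh15. An edge fell exactly on an outer base of the annotated gene for 4 of 51 sites (7.84%, against 8.90%).

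By the authors' deposited annotation, 19 of the 36 genes belong to the KEGG pathway axon guidance and 5 to cell adhesion molecules. Over all 4953 genes of the list the shares were 0.989% and 0.525%. The rule picks genes by names of such families, so these counts follow from the rule. The list holds 30 further genes of axon guidance. Their median strongest fold was 8.20, above the 6.12 of the 19 members and near the 8.10 of all genes. Angiogenesis was given for Efnb2, Ephb4, Nrp2, Plxnd1 and Unc5b, whose strongest folds run from 5.75 to 10.35. Markers do not settle which islet cells these RNAs came from. All 5 endothelial markers examined (Pecam1, Cdh5, Kdr, Plvap and Flt1) had a site, Mafa was the single one of 5 beta cell markers with one, and 0 of 4 leukocyte markers and 1 of 6 neuronal and glial markers (Tubb3) had one. Ins1, Ins2 and Gcg, defining for beta and alpha cells, had no site, but a site list does not measure expression, and the part of other cell types in the values above was not tested.

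The genes that work with these families, some inside the cell and others on its surface or secreted, had sites more often. Of 73 partners and effectors, 40 (54.8%) had a site, against 35.4% among genes of like span, with a median fold of 7.23 over 91 sites and a median strongest fold of 8.48. The exchange factors Kalrn and Trio, which act below several guidance receptors, had 13 and 9 sites, with folds up to 26.15 (chromosome 16, 34203861 to 34203979) and 12.53. Mical3, of a family of enzymes that oxidise actin, had 5 sites up to 18.97. Dvl1 and Dvl3, scaffolds that act with Celsr proteins in planar polarity, reached 18.13 and 14.12. Apba1, an adaptor that links neurexins to the release machinery, reached 15.70, and Ctnnd1, the p120 catenin that stabilises cadherins, 12.30.

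The other partners lay lower, the highest being Fyn (12.2), Farp1 (12.09), Nck2 (11.81), Srgap2 (11.48), Fzd3 (10.89) and Vav2 (10.62). Ctnna1, alpha catenin, had 2 sites with a fold of 4.72, whereas Ctnnb1, beta catenin, the netrin receptor Dcc, and Ntn1 had no site in the list. Ctnnd2 and Tenm3 had 4 sites each, with folds up to 8.45 and 9.89. Arhgef12, Cask, Clstn1, Srgap1 and Tenm2 had 3 each, up to 8.90, 7.99, 8.50, 4.96 and 7.33. Of 81 partner sites with a known strand, 12 (14.8%) lay in the last 10% of the gene, against 15.9% of all sites on genes of like span, and 10 of 34 partner genes (29.4%) had a site there. Their median position was 66.5% of the span, against 86% for the cadherin and guidance families and 70.1% for those without Robo1. No partner gene was taken out as Robo1 was, although Kalrn had 13 sites and Trio 9. Beyond the middle of the gene lay 71.6% of partner sites and 75.7% of those of the families, against 49.5% of all sites. Among all sites on genes of like span the shares were 58.7% for the partners and 55.1% for the families.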

How the data were processed

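m6A immunoprecipitate and Input, 1 library each, were compared by the authors. Reads were trimmed with cutadapt 1.9.3 and aligned with HISAT2 2.0.4, and sites were called with MACS and assigned to transcripts by the authors' own scripts, per the labels' protocols and the submitters' processing notes. The labels name human HG19 and mouse mm10; all 51 sites lay on the GRCm38.p6 span of their gene, so GRCm38 is used. The authors deposited per site a fold (a linear ratio), a score (the negative log10 of p, times 10) and an FDR in percent. The calling settings are not given in the sources used here. Starts, counted from 0 in the deposited table, are printed from 1.

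Counts, medians and positions were computed with Python 3.11.15 and pandas 2.3.3. The choice of members, the sites per gene and the median fold were checked on simulated data. Positions and shares by span were not. Genes were matched to RefSeq by identifier, then symbol, then synonym. Of all sites in the list, 117 were matched by synonym and 45 were not matched. Shares for genes of like span average the shares in 10 groups of all protein-coding genes by span. The members, lists and tests were chosen with earlier results of these data known. The named genes rule gives all sites for the 2 strongest genes of each subfamily, for the 10 strongest in all and for genes with 3 or more sites, and up to 6 genes without a site per subfamily; some further genes without a site were named for their role. No test was run, since there are no replicates.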

Additional observations from a re-analysis of the deposited data

How the results depend on the processing

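Stricter limits keep fewer sites by construction. A caller p of at most 1e-10 left 25 sites on 18 genes, 10.5% of the family genes, with a median fold of 7.46 and a median strongest fold of 8.60. An FDR below 100% left 6 sites on 5 genes, 2.91% of the family genes, with a median fold of 9.76. Over the whole list the medians under these limits were 8.72 and 12.16, so the families stayed below the list in both. Without the clustered protocadherins 28.7% of the family genes had a site, against 33.7% among genes of like span. A fold of at least 5 left 39 sites on 31 genes. The median position of 86% of the gene span fell to 70.4% with the gene counted from the outermost start of the promoter table and to 70.1% without Robo1. Merging intervals and requiring overlap with the gene moved nothing and say nothing about stability. The settings on Unc50, Robo1, the first base of the gene and the distance from a start were chosen after seeing the data. No paired analysis was possible because there is 1 library per group. Depth is unknown, so no fold carries an error.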
